A study of Mus musculus with 12 samples.

Results

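The genes described here are Epor, Jak2, Stat5a, Stat5b, Lyn, Sh2b3 and Ptpn6, which form the receptor-proximal core of erythropoietin signalling. Every probe set of the Affymetrix mouse array that the platform annotation pairs with 1 of these genes alone was taken. This gave 11 probe sets for 6 of the 7 genes, out of 45101 probe sets and 18194 genes with a probe set of their own on the array. Epor has 1 probe set, and Jak2, Stat5a, Stat5b, Sh2b3 and Ptpn6 have 2 each. Lyn was paired with no probe set in the annotation used, so it is not analysed here. All 11 probe sets lay above the filter on low values.

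Erythropoietin binds a receptor encoded by Epor at the surface of red cell precursors and brings its bound tyrosine kinase JAK2 into activity. JAK2 phosphorylates the tail of the receptor, where the transcription factors STAT5A and STAT5B dock, are phosphorylated in turn and move to the nucleus to switch on survival and growth genes. The adaptor SH2B3 (also called LNK) and the phosphatase SHP-1, encoded by Ptpn6, act on the receptor and JAK2 as brakes, and the SRC family kinase LYN adds further phosphorylation.

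The cells were I/11, a line of immature mouse erythroid progenitors from p53-deficient fetal liver that was kept growing with erythropoietin, stem cell factor and dexamethasone. They stably carried 1 of 2 lentiviral hairpins against Plcg1, named sh14 and sh133 here, or a scrambled hairpin, scr, as the control. All were made with a vector that confers puromycin resistance, and the labels do not say whether a line is a clone or a pool. RNA was taken from each line at 1, 6, 12 and 22 h, and every sample went on 1 array, which makes 12 arrays. The labels do not name the event from which the hours were counted.

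Values are log2 probe set signals after RMA, a procedure that corrects background and equalises the distributions of the arrays. A difference of 1 on this scale is a doubling. A line has 1 array at each time, so its SD also holds whatever changed between times, and no line was measured again at the same time. The p-values measure what additive line, time and array run terms leave unexplained, which may be technical and is not a spread between cultures. The array titles carry 2 date strings, read as 2 array runs. The sh14 arrays all belong to run 1 and the scr arrays all to run 2. Of the sh133 arrays, those at 6 and 12 h belong to run 1 and those at 1 and 22 h to run 2. No sh14 array thus shared a run with an scr array, and their difference rests on a run term estimated from sh133 alone. The arrays had medians of 1.84 to 1.92. Plcg1 itself averaged 4.15 ± 0.20 in sh14, 4.41 ± 0.08 in sh133 and 4.53 ± 0.19 in scr (SD, n = 4 arrays). Its hairpin minus scr difference of -0.24 ± 0.17 (SE) did not pass the test (limma adjusted p = 0.592). Erythroid markers averaged 6.56 to 7.93 on the 12 arrays, with Gata1 at 8.12 in sh14, 8.33 in sh133 and 8.23 in scr, while B cell markers averaged 1.32 to 1.64, below the array medians. Of 10 erythroid markers with a probe set, 9 lay above the filter and were tested. The exception was Hba-a1, at 0.99 in sh14, 1.02 in sh133 and 0.90 in scr.

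By the brightest probe set of each of the 6 genes, Epor rose and Sh2b3, Stat5a and Stat5b fell at 22 h against 1 h in all 3 lines. limma called 4 of 6, against a background of 18.1% of the 12673 genes tested, and 8.74% of all genes were called higher and 9.34% lower. The 1 h and 22 h arrays of each line came from the same run, so this comparison does not turn on the run term. The plot of the brightest probe set of each gene shows all values.

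**Figure D1:**
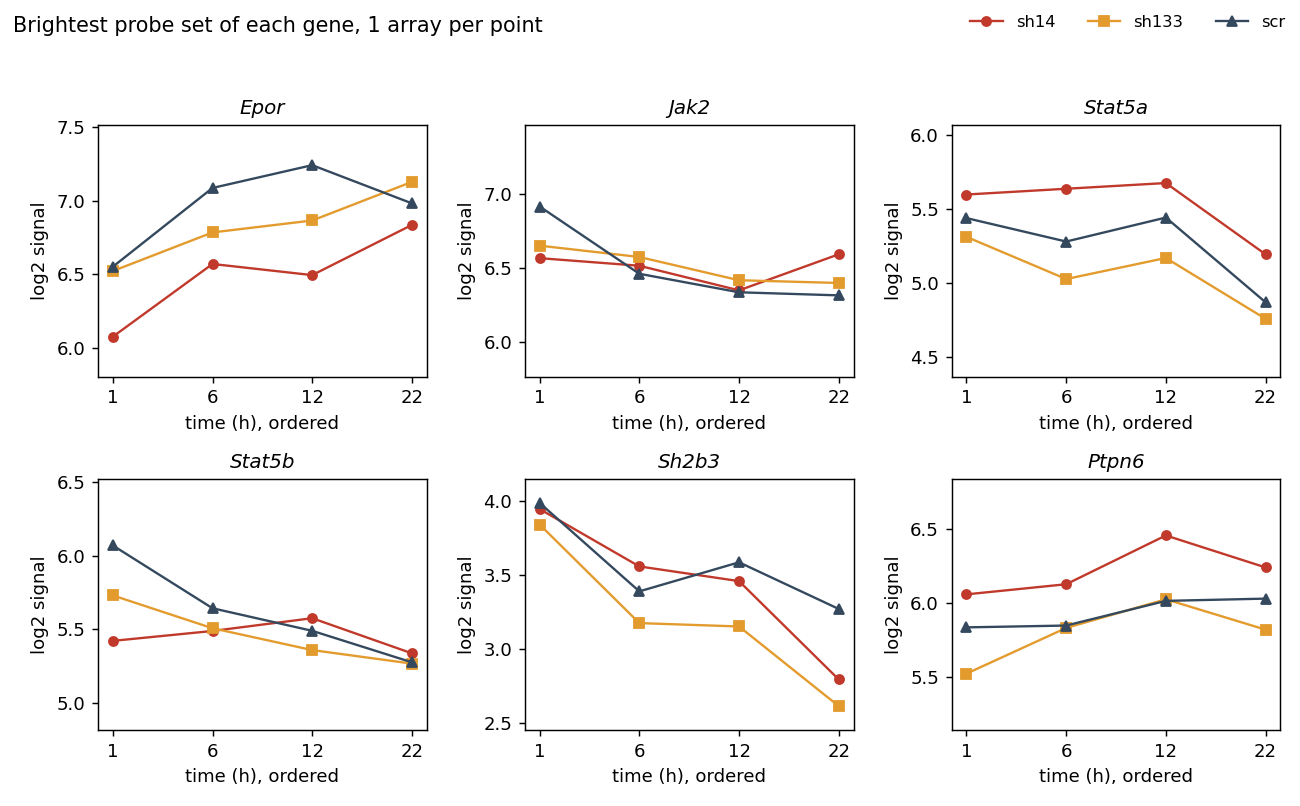
Log2 signal (vertical axis, each panel spanning the same number of log2 units) of the brightest probe set of each gene at 1, 6, 12 and 22 h (horizontal axis, times evenly spaced). Each point is 1 array of sh14 (red circles), sh133 (orange squares) or scr (dark triangles), with no error bar because each line has 1 array per time. Epor climbed and Sh2b3 fell in every line, sh14 was lowest for Epor and highest for Stat5a and Ptpn6 at all 4 times, and the 1 h values of Jak2 and Stat5b were highest in scr.

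Epor, the receptor gene, had log2 signals of 6.08, 6.57, 6.50 and 6.83 at 1, 6, 12 and 22 h in sh14. The values were 6.52, 6.78, 6.86 and 7.13 in sh133, and 6.55, 7.08, 7.24 and 6.98 in scr. All 22 h arrays lay above all 1 h arrays, a separation in this direction seen in 11.7% of all genes. The mean of the 3 lines was 6.98 ± 0.15 at 22 h and 6.38 ± 0.27 at 1 h (SD, n = 3). The fitted difference was 0.60 ± 0.11 (SE; limma adjusted p = 0.00503), a 1.51-fold higher signal at 22 h. By line, the gain was 0.76 in sh14, 0.60 in sh133 and 0.43 in scr. In scr the highest array was that at 12 h, whereas in both hairpin lines it was that at 22 h.

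Markers of red cell maturation moved in the same direction. Of 9 tested erythroid markers 8 were called higher at 22 h, where 18.1% of all genes were called in either direction. The median difference of these markers was 0.95 against 0.02 for all genes. They included Klf1, an erythroid transcription factor (1.25 ± 0.10 SE, limma adjusted p = 3.79e-05), and Alas2, which encodes the erythroid enzyme that starts heme production (2.01 ± 0.18, adjusted p = 8.98e-05). In the same comparison mast cell and basophil markers were mixed, with 4 of 8 lower, among them Hdc (-3.29), and 2 higher. Whether the make-up of the cultures changed with time, and its part in the members' changes, was not tested. In bulk RNA, fewer cells of a type and less RNA per cell cannot be told apart.

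The window of 250 bases before the annotated start of Epor is shown because Epor is the member that rose with these markers. It is credited to RefSeq and lies on the minus strand of GRCm38.p6 at chr9:21963577-21963826. Capitals mark matches, on either strand, to AGATAA, a core that GATA factors bind, or to CCNCNCCC, a GC-rich core of the kind that KLF and SP factors bind.
Epor: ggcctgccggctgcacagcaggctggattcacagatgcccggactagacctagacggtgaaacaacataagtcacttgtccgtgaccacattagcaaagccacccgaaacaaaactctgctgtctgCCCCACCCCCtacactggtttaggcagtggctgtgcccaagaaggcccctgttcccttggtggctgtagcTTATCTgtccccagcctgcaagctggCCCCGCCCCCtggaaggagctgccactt
The AGATAA match, present here on the opposite strand, begins 54 bases before the start. The capitals at 124 and 28 bases before the start each hold 2 overlapping CCNCNCCC matches. AGATAA occurs in 9.99% and CCNCNCCC in 45.9% of 32851 windows of the same length over all genes. TTCNNNGAA, a core that STAT5 binds, occurs in 7.02% of all windows and in none of the windows of the 6 genes. None of the other 5 genes has an AGATAA match in its window either. A match of letters is a description of the window and is no measure of binding.

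Sh2b3, which encodes the inhibitory adaptor, had the largest change of the 6 genes. Its log2 signals at 1, 6, 12 and 22 h were 3.95, 3.56, 3.46 and 2.79 in sh14. They were 3.84, 3.18, 3.15 and 2.61 in sh133, and 3.99, 3.39, 3.59 and 3.27 in scr. The 3 lines started within 0.15 of each other at 1 h and every 22 h array was below every 1 h array, a separation in this direction seen in 9.82% of all genes. The fitted difference at 22 h against 1 h was -1.03 ± 0.12 (SE; limma adjusted p = 0.000407), 0.489 times the 1 h signal. By line, the change was -1.15 in sh14, -1.23 in sh133 and -0.72 in scr, so the lines differed mostly at 22 h. The window before the start of Sh2b3 is shown beside that of Epor as the member that moved the other way.
Sh2b3: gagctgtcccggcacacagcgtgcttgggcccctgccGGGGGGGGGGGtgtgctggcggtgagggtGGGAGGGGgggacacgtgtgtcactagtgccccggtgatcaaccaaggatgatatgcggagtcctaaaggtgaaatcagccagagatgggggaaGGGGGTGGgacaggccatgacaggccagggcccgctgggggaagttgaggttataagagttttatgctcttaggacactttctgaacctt
It lies on the minus strand of GRCm38.p6 at chr5:121836105-121836354 (RefSeq). Its capitals mark 6 CCNCNCCC matches on the opposite strand, of which 4 overlap within a run of G.

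Stat5a and Stat5b encode closely related transcription factors and lie next to each other on mouse chromosome 11 in the GRCm38.p6 gene table. Stat5a read 5.60, 5.64, 5.68 and 5.20 at 1, 6, 12 and 22 h in sh14. It read 5.31, 5.03, 5.17 and 4.76 in sh133, and 5.44, 5.28, 5.44 and 4.87 in scr. Each line had its lowest signal at 22 h. The 22 h against 1 h difference was -0.51 ± 0.09 (SE; limma adjusted p = 0.00288). Every 22 h array was below every 1 h array, a separation in this direction seen in 9.82% of all genes.

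Stat5b read 5.42, 5.49, 5.58 and 5.34 at these times in sh14, 5.73, 5.51, 5.36 and 5.27 in sh133, and 6.07, 5.64, 5.49 and 5.28 in scr. The lines were spread at 1 h and close together at 22 h, where they lay within 5.27 to 5.34. The 22 h against 1 h difference of -0.45 ± 0.13 (SE) passed narrowly (limma adjusted p = 0.0445). It passed in 2 of 12 fits that each left out 1 array, with adjusted p from 0.00624 to 0.166. Without the scr array at 1 h it was -0.27 (adjusted p = 0.159).

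The kinase gene Jak2 and the phosphatase gene Ptpn6 did not pass at 22 h against 1 h. Jak2 read 6.56, 6.51, 6.35 and 6.59 at 1, 6, 12 and 22 h in sh14, 6.65, 6.57, 6.41 and 6.40 in sh133, and 6.91, 6.46, 6.33 and 6.31 in scr. Its difference was -0.28 ± 0.11 (SE; limma adjusted p = 0.127), with a 95% interval of -0.53 to -0.02. Ptpn6 read 6.06, 6.13, 6.46 and 6.24 in sh14, 5.52, 5.83, 6.03 and 5.82 in sh133, and 5.84, 5.85, 6.02 and 6.03 in scr. Its difference was 0.22 ± 0.09 (adjusted p = 0.111, 95% interval 0.03 to 0.42). Both intervals leave out 0, yet neither gene passed after adjustment over all genes. Jak2 passed without the sh14 array at 1 h (-0.40, adjusted p = 0.0376), and Ptpn6 passed with the mean over its probe sets (0.28, adjusted p = 0.034).

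The changes of Jak2 and Stat5b with time were unequal in size between lines. Jak2 changed between 1 and 22 h by 0.03 in sh14, -0.25 in sh133 and -0.60 in scr. Its dimmer probe set gave 0.05, -0.58 and -1.09 in the same order of lines. Stat5b changed by -0.08 in sh14, -0.46 in sh133 and -0.79 in scr. Its dimmer probe set had another order of lines, with -0.73 in sh14, 0.12 in sh133 and -0.04 in scr. The difference between the slopes of the hairpin lines and of scr on log2 hours was 0.10 ± 0.04 log2 units per doubling of hours for Jak2 and 0.13 ± 0.05 for Stat5b (SE). Neither passed (limma adjusted p = 0.262 and 0.235), nor did any other of the 6 genes, against 0.0316% of all genes (4 of 12673). The Stat5b value was 0.04 without the scr array at 1 h and 0.08 without the sh14 array at 1 h, and its dimmer probe set gave -0.07 (adjusted p = 0.677). Jak2 and Stat5b were the 2 members with an unadjusted p under 0.05. The contrast is widest at 1 h, where Jak2 differed from scr by -0.35 in sh14 and -0.26 in sh133, and Stat5b by -0.65 in sh14 and -0.34 in sh133.

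Against scr, none of the 6 genes was called for the mean of both hairpins, for sh14 or for sh133. The backgrounds were 2.18%, 3.06% and 4.91% of all genes, and at an unadjusted p under 0.05 there were 0, 1 and 1 members. The fitted differences with both hairpins were -0.13 for Epor, -0.11 for Jak2, 0.17 for Stat5a, -0.09 for Stat5b, -0.19 for Sh2b3 and -0.06 for Ptpn6. The median size of these differences was 0.12, against 0.15 for all genes. A p that misses the threshold does not show equality, and the 95% interval for Epor ran from -0.46 to 0.21. The plot of fitted differences shows the members with and without the run term.

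**Figure D2:**
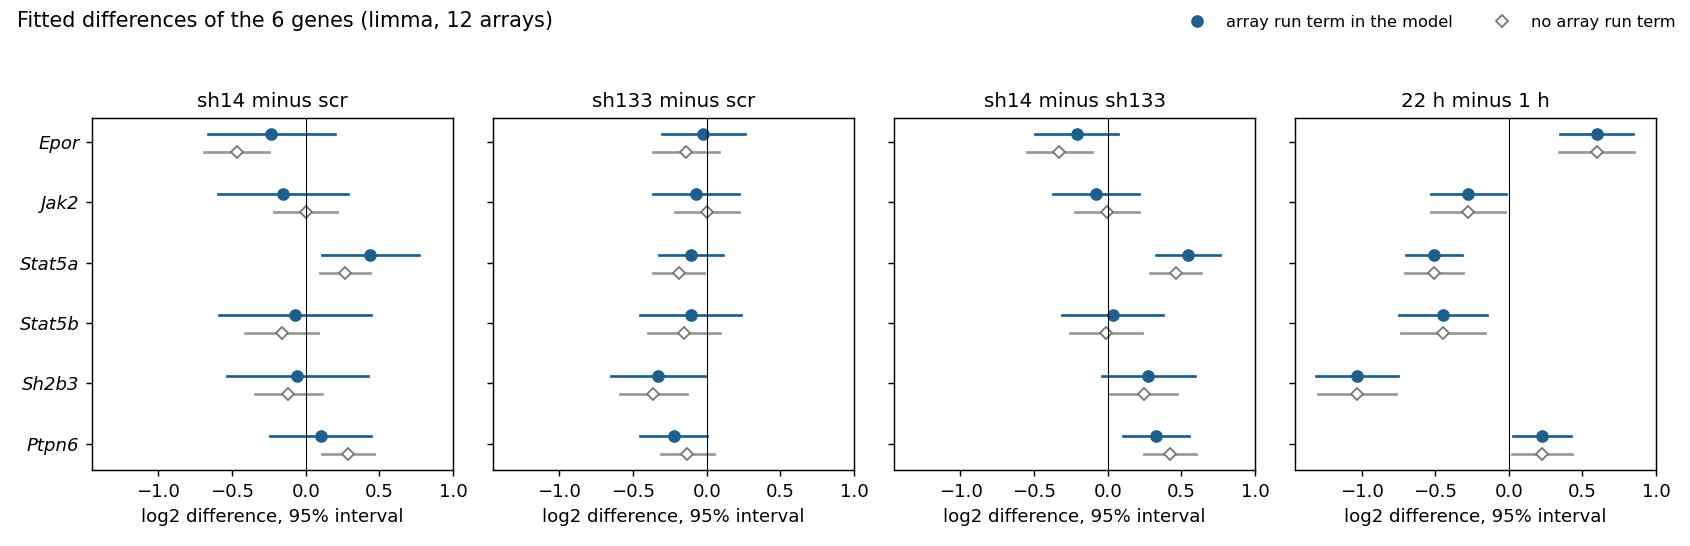
Fitted log2 differences (horizontal axis) of the 6 genes (rows) with 95% confidence intervals (bars) from limma on 12 arrays, for sh14 minus scr, sh133 minus scr, sh14 minus sh133 and 22 h minus 1 h. Filled circles are from the model with the array run term, open diamonds from the model without it. The 22 h minus 1 h differences are the same in both, whereas for Epor in sh14 minus scr the value is -0.23 with the run term and -0.47 without it.

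Epor was lowest in sh14 at all 4 times. It averaged 6.50 ± 0.31 in sh14, 6.82 ± 0.25 in sh133 and 6.96 ± 0.29 in scr (SD, n = 4 arrays). The matched differences from scr at 1, 6, 12 and 22 h were -0.47, -0.51, -0.74 and -0.15 in sh14, and -0.03, -0.30, -0.37 and 0.14 in sh133. With the run term the sh14 minus scr difference was -0.23 ± 0.19 (SE; limma adjusted p = 0.62). It was -0.08 without the sh14 array at 12 h and -0.41 without the scr array at 22 h, and passed in neither case. Without it the difference was -0.47 ± 0.10 (adjusted p = 0.00586), in a fit that called 23.7% of all genes. That fit also called Epor for both hairpins against scr (-0.30, adjusted p = 0.0356; 16.2% of all genes called) and for sh14 minus sh133 (-0.33, adjusted p = 0.0339; 24.7% of all genes called). For Epor the run term was estimated at 0.24 for run 2 minus run 1 (adjusted p = 0.926). The sh14 arrays all came from run 1 and the scr arrays from run 2, so line and run cannot be told apart for this difference except through sh133. Within run 2, sh133 minus scr was 0.06 (adjusted p = 0.945). Within run 1, at 6 and 12 h, sh14 minus sh133 was -0.29 (adjusted p = 0.1).

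Erythroid markers had lower means in sh14 than in scr in 9 of 9 cases, and with the run term 3 of 9 were called lower, against 3.06% of all genes called in either direction. Without the run term 2 of 9 were called lower and none higher, 22.2% against 23.7% of all genes. In sh133 the means of 4 were above scr and those of 5 below. Alas2 averaged 4.36 in sh14, 6.47 in sh133 and 5.43 in scr, and Slc4a1, the red cell anion exchanger gene, averaged 6.65 in sh14, 7.66 in sh133 and 7.16 in scr. Their list averaged 6.56 to 7.60 over the sh14 arrays, 6.78 to 7.82 over the sh133 arrays and 6.86 to 7.93 over the scr arrays. The part of these markers in the Epor values was not tested.

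Stat5a was the member that differed between the hairpin lines. It averaged 5.53 ± 0.22 in sh14, 5.07 ± 0.24 in sh133 and 5.26 ± 0.27 in scr (SD, n = 4 arrays). In this brighter probe set it was above scr at 4 of 4 times in sh14 and below scr at 4 of 4 times in sh133. The sh14 minus sh133 difference was 0.55 ± 0.10 (SE; limma adjusted p = 0.00534), 1.46-fold, and 14.6% of all genes were called in this comparison, 7.54% of all genes as higher in sh14. Within run 1 alone, from only the 6 and 12 h arrays of both lines, it was 0.56. Those arrays are also in the main fit, so this is no separate replication, and it leaves fewer residual degrees of freedom. The matched values were 0.29, 0.61, 0.51 and 0.44 at 1, 6, 12 and 22 h. The call was lost without the sh133 array at 12 h (0.57, adjusted p = 0.0817) or at 6 h (0.52, adjusted p = 0.101), with sizes close to that of all arrays. Against scr, sh14 differed by 0.44 ± 0.15 (adjusted p = 0.158) and sh133 by -0.11 ± 0.10 (adjusted p = 0.654).

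Ptpn6 showed the same order of lines without passing in its brightest probe set. It averaged 6.22 ± 0.17 in sh14, 5.80 ± 0.21 in sh133 and 5.93 ± 0.10 in scr (SD, n = 4 arrays). All sh14 arrays lay above all sh133 and all scr arrays, separations in this direction seen in 9.21% and 9.24% of all genes. The sh14 minus sh133 difference was 0.33 ± 0.10 (SE; limma adjusted p = 0.0579), 1.25-fold. Within run 1, from only the 6 and 12 h arrays, which are also in the main fit, it was 0.36 (adjusted p = 0.0559). The dimmer probe set, in a fit of 22549 single probe sets of which 11.8% were called, differed by 0.59 ± 0.13 and passed (adjusted p = 0.0169). For sh14 minus scr the brightest probe set gave 0.10 ± 0.15 (adjusted p = 0.814) with the run term and 0.29 ± 0.08 (adjusted p = 0.0235) without it. The combined hairpin difference of -0.06 has the opposite sign to the plain means, which were 6.01 over the hairpin arrays and 5.93 over scr, because the run term enters the fit.

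Most mast cell and basophil markers stood with Stat5a and Ptpn6 in sh14. SHP-1 and STAT5 are also made by mast cells. Of 8 tested markers 5 were called higher in sh14 than in sh133 and none lower, against 14.6% of all genes called in either direction. Against scr 4 of 8 were called higher in sh14 and none lower, against 3.06% of all genes. Without the run term 5 were called higher than in scr and 2 lower, against 23.7% of all genes. By plain means 6 of the 8 were above scr in sh14 and 2 were below. The 2 below were Hdc, which makes histamine, at 7.21 in sh14, 6.83 in sh133 and 7.91 in scr, and Cma1, a mast cell protease, at 1.58 in sh14, 1.37 in sh133 and 1.95 in scr. Over 9 markers with a probe set, the mean log2 signal was 3.38 to 3.78 on the sh14 arrays, 2.48 to 2.95 on the sh133 arrays and 2.60 to 3.09 on the scr arrays. Fcer1a, the alpha chain of the IgE receptor, was at 4.13 in sh14, 1.08 in sh133 and 1.20 in scr, below the array medians in the other two lines. Cpa3, another mast cell protease, was at 2.93 in sh14, 2.06 in sh133 and 1.91 in scr. The part of these markers in the Stat5a and Ptpn6 values was not tested.

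In its brighter probe set, Sh2b3 was below scr at 4 of 4 times in sh133 and at 3 of 4 in sh14. It averaged 3.44 ± 0.48 in sh14, 3.20 ± 0.50 in sh133 and 3.56 ± 0.31 in scr (SD, n = 4 arrays). The sh133 minus scr difference was -0.33 ± 0.14 (SE; limma adjusted p = 0.261) with a 95% interval of -0.65 to -0.01. It was -0.15 without the scr array at 22 h and -0.18 without the sh133 array at 22 h. Without the run term it was -0.36 ± 0.10 and passed (adjusted p = 0.0417; 12.6% of all genes called). Within run 2, from the 1 h and 22 h arrays, it was -0.40 (adjusted p = 0.356). The matched sh133 values widened over the times sampled, at -0.15, -0.21, -0.43 and -0.66. The dimmer probe set was above scr at 2 of 4 times in sh133, with a fitted difference of 0.12 ± 0.16 (SE; limma adjusted p = 0.791). The mean over both probe sets gave -0.11 (adjusted p = 0.739).

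Jak2 and Stat5b gave no called difference between lines. Jak2 averaged 6.50 ± 0.11 in sh14, 6.51 ± 0.12 in sh133 and 6.50 ± 0.28 in scr. Its sh14 minus sh133 difference was -0.08 with a 95% interval of -0.37 to 0.21. Stat5b averaged 5.46 ± 0.10 in sh14, 5.47 ± 0.20 in sh133 and 5.62 ± 0.33 in scr (SD, n = 4 arrays each). Its sh14 minus sh133 difference was 0.03, with a 95% interval of -0.31 to 0.38. The wider spread of scr in both genes comes with its 1 h array, the highest of the 12 for each.

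The 2 probe sets of a gene did not always tell the same story. Their values over the 12 arrays correlated at r = 0.88 for Ptpn6 and 0.87 for Jak2, at 0.59 for Stat5a, 0.23 for Sh2b3 and -0.11 for Stat5b. These are descriptions over arrays that share lines, times and runs. The dimmer Sh2b3 probe set lay between 1.36 and 1.91 on all arrays, near or below the array medians, and changed by -0.10 ± 0.14 at 22 h against 1 h (SE; limma adjusted p = 0.687), in a fit of single probe sets that called 16% of them. The dimmer Stat5b probe set changed by -0.22 ± 0.15 (adjusted p = 0.361) and the dimmer Stat5a probe set by -0.34 ± 0.21 (adjusted p = 0.304). The dimmer sets of these 3 genes thus had differences of the same sign that did not pass. They did not fall in every line, with 0.26 for Stat5a in sh14, 0.12 for Stat5b in sh133 and 0.24 for Sh2b3 in scr. When both probe sets of a gene were averaged, all 3 falls passed, at -0.42 for Stat5a (adjusted p = 0.0381), -0.33 for Stat5b (adjusted p = 0.016) and -0.57 for Sh2b3 (adjusted p = 0.0068), so that of Sh2b3 was smaller by over 1.5 times. With every probe set tested on its own, the brighter Stat5b set missed the threshold (adjusted p = 0.0508). For Stat5a the dimmer set gave sh14 minus sh133 as 0.46 ± 0.24 (adjusted p = 0.26), in the direction of the brighter one. In that dimmer set sh14 was above sh133 at 3 of 4 times, and the matched value at 1 h was -0.50. The dimmer Jak2 probe set changed by -0.54 ± 0.17 (adjusted p = 0.0621) and that of Ptpn6 by 0.33 ± 0.11 (adjusted p = 0.0823). The brighter Ptpn6 probe set has the suffix that Affymetrix gave to sets whose probes may match other transcripts. Cross-hybridisation between the similar Stat5a and Stat5b transcripts was not tested.

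**Figure D3:**
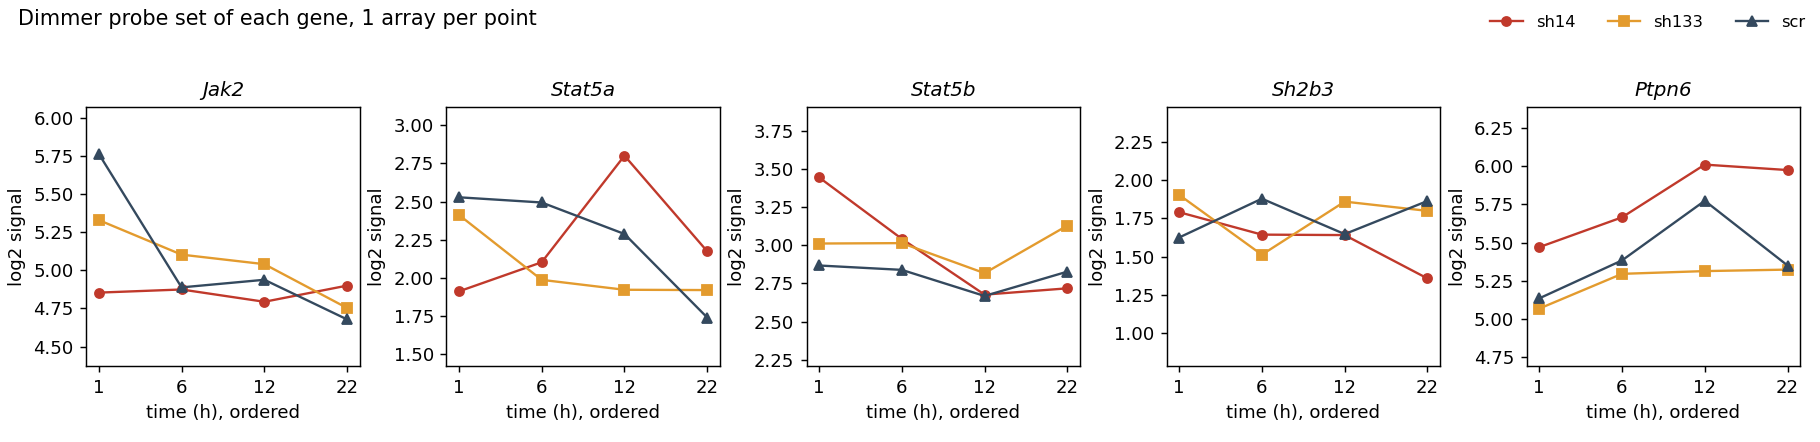
Log2 signal (vertical axis, each panel spanning the same number of log2 units) of the dimmer probe set of Jak2, Stat5a, Stat5b, Sh2b3 and Ptpn6 at 1, 6, 12 and 22 h (horizontal axis, times evenly spaced), 1 array per point, for sh14 (red circles), sh133 (orange squares) and scr (dark triangles). Ptpn6 was highest in sh14 at all 4 times, Jak2 at 1 h was highest in scr, and Sh2b3 stayed between 1.36 and 1.91.

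The genes whose pattern over the 12 arrays was most like each member were taken by Pearson correlation among the 12673 tested genes. For Epor they were Abcg4 (0.95), Hmgb3 (0.95) and Pacs2 (0.95). For Jak2 they were Dap3 (0.93), Ccni (0.93) and Lancl1 (0.92), and for Stat5a H13 (0.98), Cd151 (0.95) and Nsun4 (0.95). For Stat5b they were Mcu (0.96), Bmpr2 (0.92) and Nek6 (0.92). For Sh2b3 they were Ddx54 (0.95), Hk2 (0.95) and Dhx33 (0.94), and for Ptpn6 Ndufb2 (0.96), Rnf8 (0.93) and Tmem161a (0.93). Abcg4, a lipid transporter gene, shows the Epor pattern, with means of 4.09 in sh14, 4.80 in sh133 and 4.96 in scr, and of 5.18 at 22 h and 3.84 at 1 h. These are the highest of many correlations over arrays that share lines and times, and no test goes with them.

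Around the core, 82 other genes of the pathway were listed in 6 groups and 66 were tested. At 22 h against 1 h, 5 were called higher and 16 lower, 31.8% against 18.1% of all genes, with a median difference of -0.09 against 0.02. Among the brakes 5 of 14 were lower and 1 was higher, with a median of -0.16. Spred2 and Spred1, inhibitors of RAS to ERK signalling, differed by -1.87 ± 0.15 and -1.58 ± 0.12 (SE; limma adjusted p = 3.79e-05 and 2.86e-05). Dok2, an adaptor that damps tyrosine kinase signals, was lower (-1.26 ± 0.14, adjusted p = 0.000246), while its relative Dok1 was higher (1.01 ± 0.09, adjusted p = 8.89e-05).

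The genes known to respond to STAT5 went both ways, with 5 of 16 lower and 3 higher and a median of -0.17. In this comparison 18.1% of all genes were called in either direction. Cish, a feedback inhibitor that STAT5 induces, was at 6.39 at 22 h and 7.74 at 1 h (-1.35 ± 0.16 SE, limma adjusted p = 0.000329). Socs1, another feedback inhibitor, differed by -0.88 and the survival gene Mcl1 by -1.02 (adjusted p = 0.00158 and 0.000254). Tfrc, the transferrin receptor gene, was higher by 0.95 (adjusted p = 0.00327). Among 6 tested receptors only Kit, the receptor for stem cell factor, was called, at 6.15 at 22 h and 7.48 at 1 h (-1.33 ± 0.19, adjusted p = 0.00101).

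The counts of the other groups stand against 18.1% of all genes called in either direction at 22 h against 1 h. Of these groups, 2 of 6 JAK and STAT relatives were lower, Stat3 (-0.52) and Jak3 (-0.46), and none was higher. Among 17 adaptors Gab1, a scaffold for PI3 kinase and SHP-2, was higher (0.70 ± 0.14 SE, limma adjusted p = 0.0062), and Grb2 and Pik3r1 were lower (-0.46 and -0.43). Of 8 SRC family genes and regulators only Fyn was lower (-0.43, adjusted p = 0.0428).

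**Figure D4:**
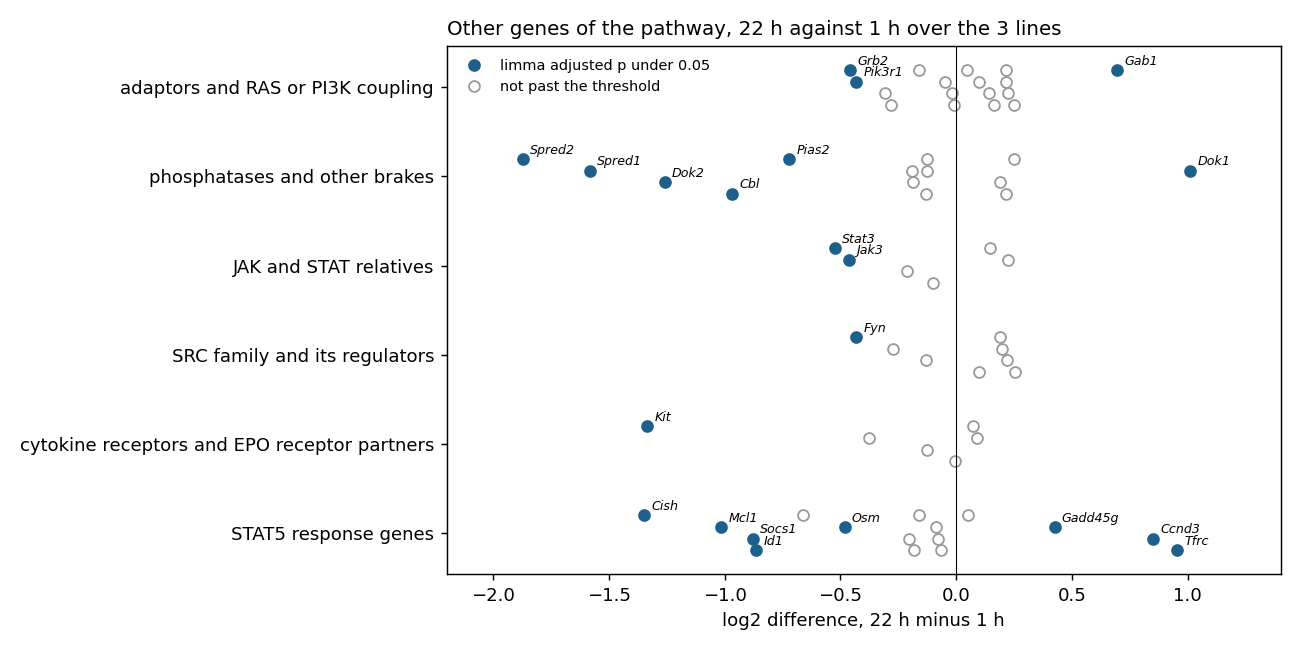
Log2 difference of 22 h minus 1 h over the 3 lines (horizontal axis) for each tested pathway gene outside the core, in 6 groups (rows), with points spread vertically only for legibility. Filled points with names passed a limma adjusted p under 0.05 and open points did not. Spred2, Spred1, Cish, Kit and Dok2 lie furthest to the left, and Dok1, Tfrc and Ccnd3 furthest to the right.

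With both hairpins against scr, 5 of the 66 pathway genes were called higher and none lower, 7.58% against 2.18% of all genes. They were Grb2, Dok2, Stat6, Fyn and Csk. Grb2, which links receptors to RAS, averaged 7.50 ± 0.27 in sh14, 7.13 ± 0.14 in sh133 and 6.66 ± 0.25 in scr (SD, n = 4 arrays). Fyn, an SRC family kinase gene like Lyn, averaged 5.30 ± 0.44 in sh14, 5.06 ± 0.12 in sh133 and 4.08 ± 0.19 in scr, and differed by 1.23 ± 0.17 (SE; limma adjusted p = 0.00737). Csk, whose product holds SRC family kinases inactive, differed by 0.69 ± 0.13 (adjusted p = 0.0271). Stat6, a transcription factor of interleukin 4 signalling, differed by 0.84 ± 0.15 (adjusted p = 0.0211) and Dok2 by 1.26 ± 0.19 (adjusted p = 0.00905). Without the run term all 5 still passed, with differences of 0.66 for Grb2, 1.10 for Fyn, 0.34 for Csk, 0.41 for Stat6 and 0.72 for Dok2, so the sizes for Csk, Stat6 and Dok2 depend on that term. The direction of the group depends on it too, since without the term 10 of the 66 genes were called higher and 10 lower, 30.3% against 16.2% of all genes. The 10 lower included Gab1 (-0.59, adjusted p = 0.0018), Tfr2, a second transferrin receptor that associates with the erythropoietin receptor (-0.48, adjusted p = 0.000696), and Jak1, a kinase related to JAK2 (-0.65, adjusted p = 0.00571). For sh133 alone, with the run term, 7 were called higher and 3 lower, 15.2% against 4.91% of all genes.

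The mean over megakaryocyte markers stood higher in both hairpin lines as well. All 5 tested markers had higher means in sh14 and in sh133 than in scr, and the mean over the list was 3.20 to 3.82 on the sh14 arrays, 3.01 to 3.67 on the sh133 arrays and 2.66 to 2.93 on the scr arrays. Pf4, a platelet chemokine gene, averaged 5.12 in sh14, 6.86 in sh133 and 4.06 in scr. Itga2b, a platelet integrin gene, averaged 7.48 in sh14, 6.08 in sh133 and 5.76 in scr. The gaps were small for Gp9, at 2.61, 2.69 and 2.53, and for Gp1bb, at 2.46, 2.52 and 2.44, in the same order of lines. Vwf was at 2.19 in sh14, 1.28 in sh133 and 1.21 in scr. With the run term none of the 5 was called for both hairpins. For single lines against scr, Itga2b was called higher in sh14 (1.85, limma adjusted p = 0.0243), where 3.06% of all genes were called. Pf4 was called higher in sh133 (2.21, adjusted p = 0.033), where 4.91% of all genes were called. Without the run term 2 of 5 were called higher for both hairpins and none lower, 40% against 16.2% of all genes. The part of these markers in the pathway values was not tested.

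Between the hairpin lines, 8 of the 66 genes were called higher in sh14 and 3 lower, 16.7% against 14.6% of all genes. Ccnd2, a cyclin gene that STAT5 can induce, averaged 8.08 in sh14 against 7.47 in sh133 (0.91 ± 0.12 SE, limma adjusted p = 0.00107) and was the only one of 16 STAT5 response genes called there. Gab1 averaged 6.36 in sh14 against 5.82 in sh133 (0.57, adjusted p = 0.0347). Ptpn11, which encodes the SHP-2 phosphatase related to SHP-1, averaged 7.63 in sh14 against 7.95 in sh133 (-0.35, adjusted p = 0.0368). Spred1 was higher in sh14 than in sh133 by 0.71 (adjusted p = 0.00675). Of the 16 STAT5 response genes none was called against scr with both hairpins or with either one when the run term was in the model. Without it 1 was called higher and 3 lower with both hairpins, 25% against 16.2% of all genes. These were Socs2, a feedback inhibitor (0.46, adjusted p = 0.00129), Socs3, another (-0.75, adjusted p = 0.015), Id1 (-0.35, adjusted p = 0.0171) and Ccnd2 (-0.42, adjusted p = 0.0301). In that model sh14 had 1 higher and 3 lower, 25% against 23.7% of all genes. For sh133 there were 1 higher and 2 lower, 18.8% against 12.6% of all genes.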

How the data were processed

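Labelled RNA of 12 I/11 samples was read on Affymetrix mouse arrays, per the labels. The deposited values are log2 probe set signals from RMA, as the labels and the submitters' processing notes give it; its version is not given in the sources used here. The platform annotation gave the gene names (1 gene for 34958, several for 932, none for 9211) and 34754 were matched by Entrez identifier to RefSeq symbols (GRCm38.p6). The probe set of highest mean stood for each gene, and a floor at log2 1.45, the 40th percentile over probe sets, left 12673 genes. limma 3.58.1 in R 4.3.3 fitted line, time and array run, with 5 residual degrees of freedom (4 with the slope term), moderated variances, Benjamini-Hochberg adjustment over all genes and a threshold of 0.05. Unless another fit is named, an adjusted p comes from this model. The pipeline was tested on simulated data. The number of arrays limits the precision. Motif matches were searched in RefSeq windows. Figures used matplotlib 3.10.9 in Python 3.11.15.

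Members and lists were chosen with earlier results of these data known. The rule for named genes took all members, Plcg1, the 3 genes most like each member, and up to 4 called genes of largest change from each list and comparison. Marker lists of macrophages, granulocytes, B cells and T cells averaged at most log2 1.84 on every array. The alternatives changed the run term, the filter, the choice of probe set, the array weights, the variance prior or the arrays included.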

Additional observations from a re-analysis of the deposited data

Results flagged for a closer look

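Stat5a differed between the hairpin lines, by 0.55 log2 for sh14 minus sh133 under limma's test of that difference. In the brighter probe set its matched differences from scr were all above 0 in sh14, with a mean of 0.27, and all below 0 in sh133. This is the same contrast seen from scr, and the dimmer probe set did not show it at every time.

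Among 33 sets of 4 arrays (11 probe sets in 3 lines), 3 had an array whose gap to the nearest other array passed the 95% critical value of Dixon's test, which chance passes in about 1 in 20 sets. Ptpn6 in its dimmer probe set was lowest in sh133 at 1 h (5.07). Stat5a in its brighter probe set was lowest in sh14 at 22 h (5.20), and in its dimmer probe set highest in sh133 at 1 h (2.41). The arrays of a line differ in time, so such a gap can be a change with time.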

How the results depend on the processing

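Without the array run term 1 member was called with both hairpins (Epor), 3 with sh14 (Epor, Stat5a, Ptpn6), 1 with sh133 (Sh2b3) and 3 in sh14 minus sh133 (Epor, Stat5a, Ptpn6), while the counts over all genes were 2049, 3003, 1592 and 3132, against 276, 388, 622 and 1856 with it. In sh14 minus sh133, 2 members (Stat5a, Ptpn6) were called with the 60th percentile filter, with the mean over probe sets and with array weights. The first 2 of these fits called 1931 of 9279 and 1685 of 11912 genes there. Array weights also called 3468 genes there, 858 for sh14, 452 with both hairpins and 489 for the slope difference, where 4 were called without them and 130 with a variance prior following the mean; 3, 1, 0 and 1 genes were called for it without the run term, with the 60th percentile filter, with the mean over probe sets and with every probe set tested. Leaving out each array in turn gave 0 to 2 members in sh14 minus sh133 and 3 to 5 at 22 h against 1 h, and 0 in each of the other 4 comparisons. Over all genes, the fit with 2 members called 2128 and the fit with 5 members called 2273. Over all genes, sh133 minus scr had 254 calls within run 2 alone, and sh14 minus sh133 had 390 without the sh133 array at 12 h and 413 without that at 6 h. At 22 h against 1 h, 5 members (Ptpn6 added) were called with the mean over probe sets, where 2167 of 11912 genes were called. With every probe set tested, 3 members (Stat5b lost) were called, where 3605 of 22549 probe sets were called. Epor, Stat5a and Sh2b3 passed at 22 h against 1 h in all 12 fits that each left out 1 array. Of 696 member values under the alternatives, 0 called values changed sign and 29 uncalled ones did. No paired analysis was possible because the titles number the arrays singly and give no replicate numbers that lines share; arrays of the same time are matched by the time term in each fit.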
